A study of Mus musculus with 6 samples.

Results

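The UDP-glucuronosyltransferases (UGTs) and the cytosolic sulfotransferases (SULTs) were described in mouse liver. The members were all protein-coding genes in the deposited count table whose symbols begin with Ugt1a, Ugt2a, Ugt2b or Ugt3a, or with Sult and a digit. There were 42 of them among 52550 gene identifiers, 21 UGTs and 21 SULTs. The UGTs comprised 9 Ugt1a, 3 Ugt2a, 7 Ugt2b and 2 Ugt3a genes, and the SULTs comprised 6 Sult1, 9 Sult2, 2 Sult3, 1 Sult4, 1 Sult5 and 2 Sult6 genes.

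The livers came from 3 Slc7a11-LTG transgenic male mice (TG) and 3 male control mice (WT). Every mouse was 8 weeks old and had eaten an MCD diet, one deficient in methionine and choline, for 1 week, so no group on ordinary chow was compared. Slc7a11 encodes the cystine-importing subunit of the cystine-glutamate exchanger. The labels do not state which promoter drives the transgene, whether the mice form 1 founder line, or the strain. RNA was extracted from frozen liver and sequenced, and each library came from 1 mouse.

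UGTs sit in the membrane of the endoplasmic reticulum and transfer glucuronic acid from UDP-glucuronic acid to bilirubin, steroids, bile acids, phenols and drugs. SULTs work in the cytosol and transfer sulfate from PAPS, the activated form of sulfate, to phenols, catecholamines, steroids and bile acids. Both reactions make their substrates more soluble in water and are major routes by which the liver clears hormones and xenobiotics. Cysteine is one source of the inorganic sulfate from which PAPS is made.

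Among the members, the steroid- and drug-conjugating Ugt2b genes gave most of the UGT counts. The phenol sulfotransferase Sult1a1 gave the largest share of the SULT counts, on average 55.73% in TG and 46.35% in WT. Among the UGTs 13 of 16 tested and among the SULTs 6 of 8 tested had a log2 fold change below 0, against 53.8% of all genes tested. All 8 hepatocyte markers used below also had a log2 fold change below 0, with a median of -0.57. Their part in the family values was not tested. None of the members passed the adjusted threshold of edgeR, defined below. Sult1d1, a catecholamine sulfotransferase, had the smallest unadjusted p of the members, at 164 ± 7.92 CPM in TG and 264 ± 11.5 CPM in WT (SD, n = 3 each). Sult1e1, the estrogen sulfotransferase, was high in 2 of the 3 TG livers only.

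Libraries held 16016640 to 17463329 counts, and levels are given as CPM, counts relative to library size after TMM scaling. A count of 3 was the floor for detection, a limit that covers counting error only. Before TMM scaling it equals 0.172 to 0.187 CPM. Values by liver are listed in the order of replicates 1, 2 and 3. Each log2 fold change is the TG level minus the WT level and carries a standard error (SE). Slc7a11 itself stood at 4416, 1377 and 2907 CPM in the TG livers and at 2.92, 3.33 and 10.6 CPM in the WT livers, as the labels require. Under the quasi-likelihood test of edgeR with p-values adjusted by Benjamini-Hochberg, 0% of the 14031 genes tested passed an adjusted p of 0.05, whereas 1551 genes, 11.1%, had an unadjusted p below 0.05. Of all genes tested, 8.68% were higher and 2.37% lower in TG at that unadjusted threshold, and DESeq2 called 390 genes, 3.02% of those it adjusted. TG replicate 3 stood apart from the other TG livers: for 12 macrophage markers the median log2 difference from the mean of the WT livers was 2.25, 2.96 and 0.41. For 11 acute-phase genes it was 1.38, 3.18 and -0.14. For 8 hepatocyte markers it was -0.02, -1.0 and -0.65 in the TG livers and 0.19, 0.49 and -0.75 in the WT livers. All 12 macrophage markers were higher in TG at an unadjusted p below 0.05, and their summed level was 588 to 3397 CPM in TG and 322 to 566 CPM in WT. The hepatocyte markers summed to 85970 to 106200 CPM in TG and 92190 to 179500 CPM in WT livers. The kidney markers summed to at most 0.381 CPM. In whole liver, fewer cells of a type and less RNA per cell cannot be told apart.

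The Ugt1a genes are read first as sequence, since it bears on every count that follows. In their 9 protein-coding transcripts in the GENCODE annotation of mm10, the first coding exon lies at a different position in each. It holds 849 to 870 coding bases and is spliced to the same exon 2 in all 9. All 9 share an identical coding part of 738 bases. The lines below give, 5′ to 3′ on the plus strand of chromosome 1, the last 25 bases of each first exon in lower case and the first 40 bases of exon 2, at chr1:88215044-88215083, in capitals.
Ugt1a10: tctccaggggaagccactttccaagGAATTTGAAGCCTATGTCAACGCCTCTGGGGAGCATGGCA
Ugt1a9: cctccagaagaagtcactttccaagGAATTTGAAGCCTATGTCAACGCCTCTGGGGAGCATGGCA
Ugt1a8: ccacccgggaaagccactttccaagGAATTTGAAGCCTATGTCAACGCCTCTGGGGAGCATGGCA
Ugt1a7c: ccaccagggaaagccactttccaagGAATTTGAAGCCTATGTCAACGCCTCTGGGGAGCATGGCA
Ugt1a6b: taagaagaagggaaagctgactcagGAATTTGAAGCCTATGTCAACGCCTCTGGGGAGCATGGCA
Ugt1a6a: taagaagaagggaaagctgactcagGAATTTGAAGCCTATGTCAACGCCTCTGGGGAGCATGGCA
Ugt1a5: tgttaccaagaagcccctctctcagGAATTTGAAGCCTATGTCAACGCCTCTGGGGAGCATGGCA
Ugt1a2: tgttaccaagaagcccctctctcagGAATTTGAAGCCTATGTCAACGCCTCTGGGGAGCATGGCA
Ugt1a1: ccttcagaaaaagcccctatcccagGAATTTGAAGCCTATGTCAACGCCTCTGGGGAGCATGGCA

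The capitals are letter for letter the same in all 9 lines, so a read inside them names no single gene. The lower-case ends take only 7 forms: Ugt1a6a and Ugt1a6b end alike, and so do Ugt1a5 and Ugt1a2. Between 50.3% of the exon bases, in Ugt1a6a, and 82.7%, in Ugt1a1, lay in exons of another gene on either strand. In Ugt1a1, 528 of these bases were overlapped on the opposite strand only. How the deposited counts treated reads from these shared exons is not given in the sources used here, so each Ugt1a value below is uncertain to that extent, and so are the values of Ugt2a1 and Ugt2a2. Near-identical copies limit other members too. The coding sequences of Ugt2b5 and Ugt2b38 were 97.0% identical, those of Ugt1a6a and Ugt1a6b 98.4%, and those of Ugt3a1 and Ugt3a2 93.3%, counted over all alignment columns with gaps included. Of all 50-base windows along the Ugt2b5 coding sequence, 48.8% were also found in another gene, against 0.4% for Ugt2b36. With both strands searched, every such window of Ugt1a6a also occurred in a transcript annotated to another gene, and for Ugt1a1 the share was 73.1%. No such window of Sult1d1, Sult1e1, Sult1b1, Sult2a8, Sult2a7 or Sult5a1 occurred elsewhere, a share of 0.0%. For Sult1a1 the share was 12.0% and for Sult1c2 1.5%. In Sult1a1, 61 exon bases were also overlapped on the opposite strand.

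In the UGT family, 16 of the 21 members had enough counts to be tested and 5 had not. Ugt2a1 and Ugt2a2 had 0 counts in every library. Since 98.8% and 94.5% of their exon bases lie in exons of another gene, leaving 30 and 140 bases of their own, a 0 here does not show that no transcript was present. Ugt1a8 had at most 1 count, Ugt1a2 at most 8 and Ugt1a10 at most 12. None of the 16 tested UGTs passed the adjusted threshold with edgeR's quasi-likelihood test, where the smallest Benjamini-Hochberg adjusted p was 0.404, and DESeq2 called 0 of them. There were 13 UGTs with a log2 fold change below 0 and 3 above 0, with a median of -0.29 and a range of -1.12 to 0.64. Over all genes tested the median was -0.03, and 53.8% lay below 0. Ugt1a1 alone, 1 of 16, had an unadjusted p below 0.05, lower in TG. Of all genes tested, 15.4% had groups that did not overlap, 9.22% with every TG liver above and 6.14% with every TG liver below the WT livers; for the UGTs these counts were 0 above and 1 below.

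Summed over the family, the UGT level was 2162, 1593 and 2613 CPM in the TG livers and 2394, 2799 and 2551 CPM in the WT livers. The highest and lowest of the 6 sums were WT replicate 2 and TG replicate 2, and TG replicate 3 lay within the WT range, so the groups overlapped. The means were 2123 ± 511 CPM in TG and 2581 ± 204 CPM in WT (SD, n = 3 each), a log2 ratio of -0.28. Without TG replicate 2 the log2 ratio was -0.11, and without TG replicate 3 it was -0.49. TG replicate 2 was the lowest library for 10 of the 16 tested UGTs, while TG replicate 3 was the lowest for 0. TG replicate 2 also had the lowest hepatocyte median and the highest macrophage and acute-phase medians, and the part of these in the UGT levels was not tested. No p was computed for the sums, since an exact permutation test of 3 against 3 livers cannot go below 0.10.

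**Figure D1:**
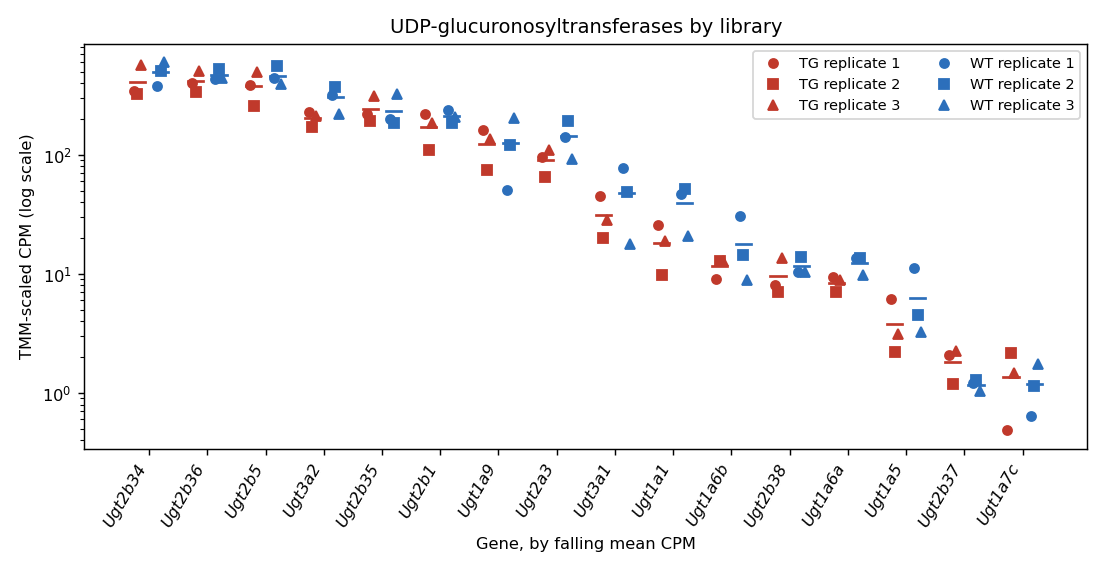
TMM-scaled CPM on a log axis for the 16 tested UGT genes, ordered by mean level; red symbols are the 3 TG livers, blue symbols the 3 WT livers, and short bars the group means. The groups overlap for every gene except Ugt1a6a, whose 3 TG values lie below all WT values.

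Ugt1a1, at chr1:88211959-88218997 on the plus strand, makes the enzyme that conjugates bilirubin. Its level was 25.8, 9.72 and 19.0 CPM in the TG livers and 46.7, 51.2 and 20.8 CPM in the WT livers. WT replicates 1 and 2 lay well above the other 4 libraries, but WT replicate 3 lay below TG replicate 1, so the groups overlapped. The log2 fold change was -1.12 (SE 0.44), with an unadjusted p of 0.0353 and an adjusted p of 0.404 by edgeR's quasi-likelihood test with Benjamini-Hochberg adjustment. Across 13 alternative settings the log2 fold change lay between -1.46 and -0.82, and the unadjusted p was below 0.05 in 7 of them. It was above 0.05 when either of TG replicates 2 and 3 or either of WT replicates 1 and 2 was left out, without a filter on low counts, and with a replicate block. An antisense gene, Gm20528, overlaps 528 of its exon bases and had 0 counts in every library.

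Ugt1a6a, a paralogue for small planar phenols, was at 9.47, 7.06 and 8.84 CPM in the TG livers and at 13.6, 13.5 and 9.83 CPM in the WT livers. It was the only UGT of the 16 whose groups did not overlap. Every TG value lay below every WT value, with WT replicate 3 close to the highest TG value. Since no 50-base window of its coding sequence is unique to it, this value is uncertain as to the gene. Its log2 fold change was -0.54 (SE 0.23), the unadjusted p 0.0506 and the edgeR quasi-likelihood Benjamini-Hochberg adjusted p 0.455. Its near twin Ugt1a6b overlapped between groups, with 9.11 to 12.8 CPM in TG and 8.84 to 30.6 CPM in WT.

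Ugt1a9, known for phenols and fatty acids, had the highest level of the locus and no constant direction. It stood at 161, 74.9 and 137 CPM in the TG livers and at 50.7, 122 and 203 CPM in the WT livers. The lowest and the highest of the 6 values were both WT livers. The log2 fold change was -0.01 (SE 0.50), and its sign turned in 6 of 13 alternatives, among them library size scaling, which gave 0.05, and upper quartile scaling, which gave 0.01. Ugt1a5 spanned 2.20 to 6.13 CPM in TG and 3.22 to 11.2 CPM in WT, and Ugt1a7c lay at or below 2.15 CPM in every liver.

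Levels can be set between genes only per kb of exon. Counted over all exon bases, Ugt1a9 had a mean of 56.6 CPM per kb in TG and 57.1 in WT, and Ugt1a1 had 8.16 in TG and 17.8 in WT. Counted over only the exon bases that no other gene on the same strand shares, the means were 141 and 142 CPM per kb for Ugt1a9 and 19.9 and 43.3 for Ugt1a1. Ugt1a9 led and Ugt1a1 stood next under both lengths. Since the counting of shared exons is unknown, the true per-length level may follow either scale. The ratio of TG to WT within a gene does not depend on the length.

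**Figure D2:**
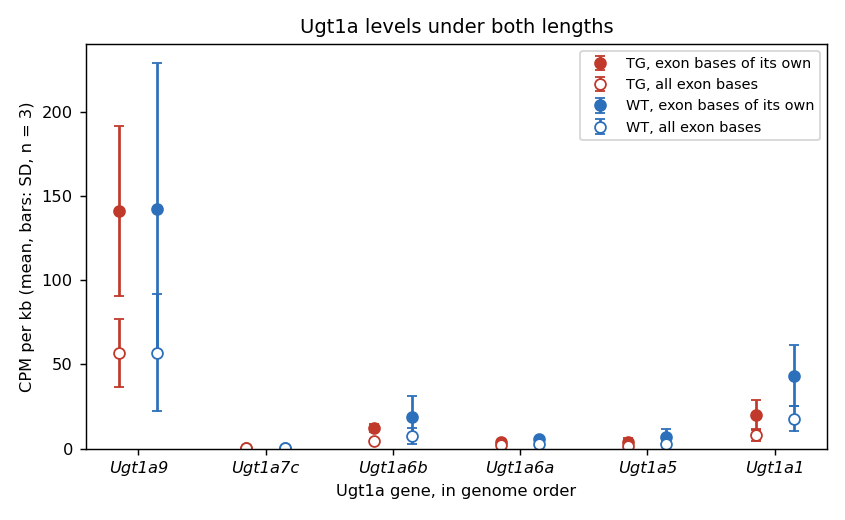
Mean CPM per kb of the 6 tested Ugt1a genes in genome order, with SD over 3 livers; filled symbols divide by the exon bases no other same-strand gene shares and open symbols by all exon bases. Ugt1a9 lies near 141 CPM per kb in both groups over its own bases, and Ugt1a1 lies at 19.9 in TG and 43.3 in WT.

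The Ugt2b genes, on chromosome 5, conjugate steroids, bile acids and many drugs, and they made up most of the UGT counts. Ugt2b34, Ugt2b36 and Ugt2b5 held 19.3%, 19.6% and 17.7% of the family counts in TG and 19.1%, 18.1% and 17.9% in WT on average. Per kb of exon, Ugt2b5 and Ugt2b36 had the highest levels of the family, 205 and 201 CPM per kb in TG and 249 and 228 in WT, while Ugt2b34, which has more exon bases, had 95.6 and 114. Their SDs, 64.5 and 41.1 CPM per kb in TG for Ugt2b5 and Ugt2b36, exceed the gap between them.

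Ugt2b34 was at 347, 323 and 566 CPM in the TG livers and at 380, 502 and 597 CPM in the WT livers. In both groups replicate 3 was the highest, and the groups overlapped (log2 fold change -0.26, SE 0.32). Ugt2b36 was at 399, 337 and 504 CPM in TG and at 437, 531 and 439 CPM in WT, and Ugt2b5 at 388, 257 and 497 CPM in TG and at 438, 562 and 390 CPM in WT. For both genes TG replicate 2 was lowest and WT replicate 2 highest, with log2 fold changes of -0.18 and -0.28. Ugt2b1 was at 218, 109 and 186 CPM in TG and at 237, 184 and 209 CPM in WT (log2 fold change -0.30). Ugt2b35 was at 220, 192 and 310 CPM in TG and at 198, 183 and 324 CPM in WT (log2 fold change 0.03), which turned negative when TG replicate 3 or either of WT replicates 1 and 2 was left out. These Ugt2b values rested in part on single livers. Without TG replicate 2 the log2 fold changes of Ugt2b34, Ugt2b36, Ugt2b5 and Ugt2b1 were -0.10, -0.05, -0.06 and -0.06, and without TG replicate 3 they were -0.59, -0.37, -0.55 and -0.39. Without WT replicate 3 that of Ugt2b34 was -0.09. None of the 7 Ugt2b genes had an unadjusted p below 0.05, and their median log2 fold change was -0.26.

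Ugt2b38 and Ugt2b37 were scarce. Ugt2b38 spanned 7.06 to 13.7 CPM in TG and 10.3 to 13.9 CPM in WT. Ugt2b37 was at 2.06, 1.19 and 2.23 CPM in the TG livers and at 1.21, 1.29 and 1.04 CPM in the WT livers, from 17 to 44 counts. It had the largest positive log2 fold change of the UGTs, 0.64 (SE 0.39, unadjusted p 0.144), and TG replicate 2 lay among the WT values. As a share of the UGT counts it was 0.0955%, 0.0745% and 0.0855% in TG and 0.0504%, 0.0460% and 0.0408% in WT, so that by share the groups did not overlap. How often groups separate by share of a family was not computed over all genes. The 15.4% of all genes given above was counted on CPM, where Ugt2b37 overlapped. Its coding sequence was 94.7% identical to that of the abundant Ugt2b5, and reads shared between them could not be separated here. By share of the UGT counts Ugt1a6a overlapped between groups, at 0.4382%, 0.4434% and 0.3382% in TG and 0.5676%, 0.4839% and 0.3853% in WT.

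Ugt2a3, whose human counterpart conjugates bile acids, and the Ugt3a genes, whose human counterparts use sugars other than glucuronic acid, had lower mean levels in the TG livers, without passing the test. Ugt2a3 was at 95.7, 64.9 and 111 CPM in the TG livers and at 142, 194 and 93.0 CPM in the WT livers. Ugt3a2 was at 227, 173 and 212 CPM in TG and at 320, 371 and 222 CPM in WT. In both genes WT replicates 1 and 2 lay above all TG livers and WT replicate 3 lay among them. The log2 fold changes were -0.66 (SE 0.32, unadjusted p 0.0727) and -0.58 (SE 0.26, unadjusted p 0.0602). Without WT replicate 3 they were -0.89 and -0.76, both at an unadjusted p below 0.05, and without WT replicate 2 they were -0.38 and -0.41. Ugt3a1 spanned 20.1 to 44.8 CPM in TG and 18.0 to 77.5 CPM in WT.

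**Figure D3:**
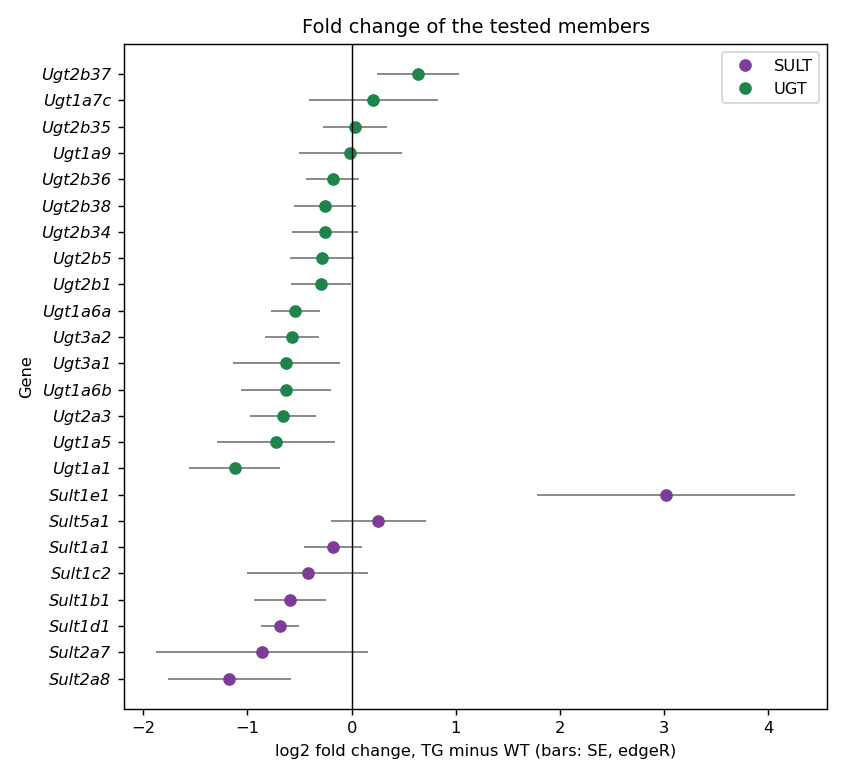
Log2 fold change, TG minus WT, of the 16 tested UGTs (green) and 8 tested SULTs (purple), with bars of 1 SE from edgeR. Of these, 13 UGTs and 6 SULTs lie left of 0, Sult1e1 lies far right at 3.02 with an SE of 1.24, and Sult1d1 has the narrowest bar, 0.18.

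In the SULT family, 8 of the 21 members could be tested and 13 could not. Sult1c1, Sult2a4, Sult2a5, Sult2a6, Sult3a2 and Sult6b2 had 0 counts in every library, and 11 members never exceeded 3 counts. Sult2a1, a hydroxysteroid and bile acid sulfotransferase, had at most 2 counts, Sult3a1, an amine sulfotransferase, at most 1, Sult2b1, a cholesterol sulfotransferase, at most 2 and the brain gene Sult4a1 at most 1. The highest count among the untested SULTs was 5. None of the 8 tested SULTs passed the adjusted threshold with edgeR's quasi-likelihood test, and the smallest Benjamini-Hochberg adjusted p was 0.343, whereas DESeq2 called 1, Sult1d1. There were 6 with a log2 fold change below 0 and 2 above 0, with a median of -0.51, which became -0.28 without WT replicate 2 and -0.30 without TG replicate 1. At an unadjusted p below 0.05, Sult1d1 was lower and Sult1e1 higher in TG. Of all genes tested, 2.37% were lower and 8.68% higher at that threshold, and DESeq2 called 3.02% of those it adjusted.

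The summed SULT level was 777, 564 and 648 CPM in the TG livers and 911, 1107 and 663 CPM in the WT livers. WT replicates 1 and 2 lay above every TG liver and WT replicate 3 below TG replicate 1, so the groups overlapped. The means were 663 ± 107 CPM in TG and 894 ± 223 CPM in WT (SD, n = 3 each), a log2 ratio of -0.43. Without WT replicate 2 it was -0.25, and without WT replicate 3 it was -0.61. WT replicate 2 was the highest library for 6 of the 8 tested SULTs, and it also had the highest hepatocyte median, whose part in the SULT levels was not tested. Sult1a1, Sult1d1 and Sult2a8 held nearly all SULT counts.

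**Figure D4:**
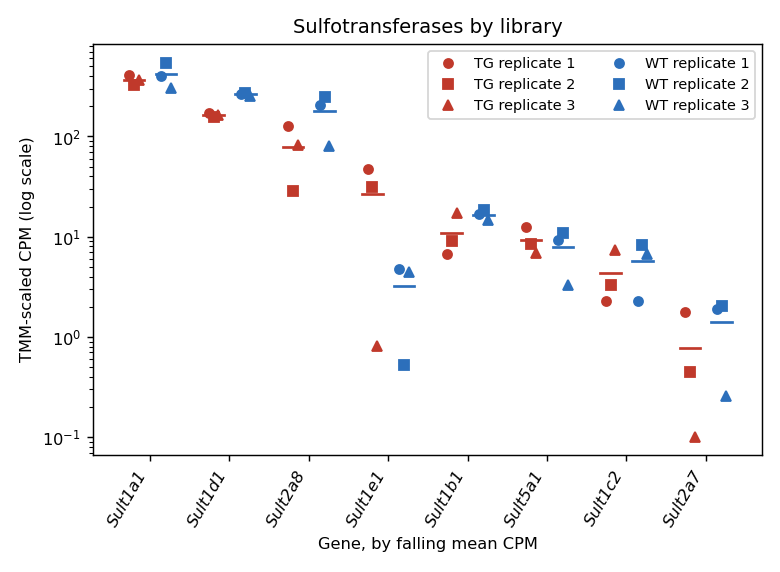
TMM-scaled CPM on a log axis for the 8 tested SULT genes, ordered by mean level; red symbols are the 3 TG livers, blue symbols the 3 WT livers, and short bars the group means. For Sult1d1 all TG livers lie below all WT livers, and for Sult1e1 TG replicates 1 and 2 lie at 47.8 and 31.7 CPM while the other 4 livers lie at or below 4.76 CPM.

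Sult1d1, at chr5:87554645-87569027 on the minus strand, in mice sulfates dopamine and other catecholamines, and its levels separated the groups. Its level was 172, 156 and 164 CPM in the TG livers and 267, 273 and 251 CPM in the WT livers. All TG livers lay below all WT livers, TG replicate 3 and WT replicate 3 included, and both groups were tight at 164 ± 7.92 and 264 ± 11.5 CPM (SD, n = 3 each). The WT level was 1.61-fold the TG level, a log2 fold change of -0.69 (SE 0.18). The unadjusted p was 0.00668. Adjusted by Benjamini-Hochberg over all genes, it became 0.343 in the quasi-likelihood test of edgeR and 0.00136 in DESeq2. Across the 13 alternatives the log2 fold change lay between -0.72 and -0.56, the unadjusted p was below 0.05 in all 13, and the adjusted p ran from 0.00136 to 0.930. It was the only SULT of the 8 tested whose groups did not overlap. Of all genes tested, 15.4% had groups that did not overlap, 6.14% with every TG liver below the WT livers. Within each group the livers stood in the same order for Sult1d1 as for the hepatocyte medians. Between groups they did not: WT replicate 3, with a hepatocyte median of -0.75, was at 251 CPM, and TG replicate 1, with a median of -0.02, at 172 CPM. The part of the hepatocyte markers in the Sult1d1 level was not tested.

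Sult1a1, the main phenol sulfotransferase, was the most abundant SULT, at 244 CPM per kb of exon in TG and 277 in WT, against 66.8 and 107 for Sult1d1 and 24.0 and 54.2 for Sult2a8. Its level was 407, 326 and 369 CPM in the TG livers and 402, 545 and 303 CPM in the WT livers. The WT range enclosed the TG range (log2 fold change -0.18, SE 0.28), and the sign turned to 0.06 without WT replicate 2. As a share of the SULT counts, Sult1a1 took 52.4%, 57.8% and 57.0% in TG and 44.2%, 49.2% and 45.7% in WT, so that by share every TG liver lay above every WT liver. Shares of a family sum to a whole, so this gap also depends on the counts of the other members, Sult1d1 and Sult2a8 among them. Sult2a8 took 16.22%, 5.017% and 12.71% in TG and 22.59%, 22.44% and 11.99% in WT, so it overlapped between groups. By share Sult1d1 overlapped between groups, at 22.15%, 27.69% and 25.33% in TG and 29.34%, 24.67% and 37.85% in WT. Sult5a1 too had every TG liver above by share, at 1.61%, 1.512% and 1.074% in TG and 1.01%, 0.9907% and 0.502% in WT. In CPM the groups overlapped for both Sult1a1 and Sult5a1. How often groups separate by share of a family was not computed over all genes, so no background stands beside these cases.

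Sult1e1, the estrogen sulfotransferase at chr5:87575969-87591594, next to Sult1d1 on the same strand, had the largest fold change of all members and the widest spread. It was at 47.8, 31.7 and 0.813 CPM in the TG livers and at 4.76, 0.530 and 4.42 CPM in the WT livers. TG replicates 1 and 2 stood far above the other 4 livers, and TG replicate 3, with 16 counts, lay below WT replicates 1 and 3, so the groups overlapped. The log2 fold change was 3.02 (SE 1.24), with an unadjusted p of 0.0433 and an adjusted p of 0.432 by edgeR's quasi-likelihood test with Benjamini-Hochberg adjustment. Its unadjusted p was below 0.05 in 5 of 13 alternatives, with log2 fold changes from 2.01 to 3.56, and it was not below 0.05 when any library other than TG replicate 3 was left out. The 2 livers with high Sult1e1 were also those with the highest macrophage medians, 2.25 and 2.96, and acute-phase medians, 1.38 and 3.18. The part of those in the Sult1e1 level was not tested.

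Sult2a8, which sulfates bile acids in mouse liver, was at 126, 28.3 and 82.3 CPM in the TG livers and at 206, 248 and 79.5 CPM in the WT livers. WT replicates 1 and 2 were the highest, TG replicate 2 the lowest, and the replicates 3 of both groups lay close together. All 6 livers stood in the same order as for the hepatocyte medians, whose part in the Sult2a8 level was not tested. The log2 fold change was -1.17 (SE 0.59, unadjusted p 0.0851), the most negative of all members, and ran from -1.68 without TG replicate 1 to -0.77 without TG replicate 2. Sult2a7, a relative, had 2 to 30 counts per library, 0.102 to 1.76 CPM in TG and 0.260 to 2.04 CPM in WT, with TG replicate 3 and WT replicate 3 the lowest of their groups. Its log2 fold change of -0.86 ran from -2.31 without TG replicate 1 to -0.35 without TG replicate 3.

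The remaining tested SULTs were scarce. Sult1b1, a thyroid hormone sulfotransferase, was at 6.74, 9.15 and 17.1 CPM in the TG livers and at 16.9, 18.4 and 14.6 CPM in the WT livers, with TG replicate 3 inside the WT range (log2 fold change -0.59, SE 0.34, unadjusted p 0.125). Without TG replicate 3 its log2 fold change was -1.09 with an unadjusted p of 0.00386, and without TG replicate 1 it was -0.34. Sult1c2 was at 2.31, 3.28 and 7.31 CPM in TG and at 2.29, 8.32 and 6.76 CPM in WT (log2 fold change -0.42, from -1.07 without TG replicate 3 to -0.08 without WT replicate 2). Sult5a1, whose substrate is not established, was at 12.5, 8.53 and 6.96 CPM in TG and at 9.21, 11.0 and 3.33 CPM in WT (log2 fold change 0.26), and its sign turned without TG replicate 1 or WT replicate 3. No library was extreme for all of these genes.

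**Figure D5:**
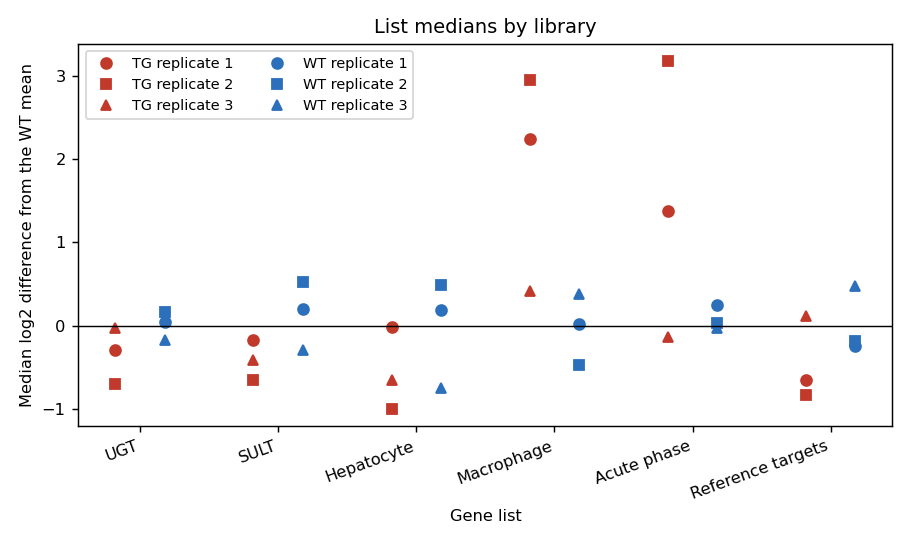
Median log2 difference from the WT mean, per liver, for the tested UGTs and SULTs beside hepatocyte, macrophage and acute-phase markers and reference targets of the regulators. TG replicate 3 lies with the WT livers for the macrophage and acute-phase lists but not apart from the TG livers for the SULTs, where it is at -0.41.

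Lists of genes around both reactions gave few differences. For the supply of UDP-glucuronic acid, 0 of 11 genes had an unadjusted p below 0.05; Ugdh, which makes UDP-glucuronic acid from UDP-glucose, was at 162, 124 and 349 CPM in TG and 80.0, 118 and 236 CPM in WT. Of 7 genes that break down glucuronides or their sugars, Gusb, the lysosomal beta-glucuronidase, was higher in TG (log2 fold change 0.48, unadjusted p 0.0490). Of 10 genes that supply or use PAPS, Tpst1, a protein-tyrosine sulfotransferase of the Golgi, was lower (log2 fold change -0.47, unadjusted p 0.0288). Its paralogue Tpst2 went the other way (log2 fold change 0.31, unadjusted p 0.0845 by edgeR). Of all genes tested, 8.68% were higher and 2.37% lower at an unadjusted p below 0.05. Papss2, the PAPS synthase that dominates in liver, was at 175, 142 and 170 CPM in the TG livers and at 248, 226 and 161 CPM in the WT livers. WT replicate 3 lay among the TG livers (log2 fold change -0.38, SE 0.23, unadjusted p 0.140). No gene of 7 for sulfate ester hydrolysis and none of 6 exporters of conjugates had an unadjusted p below 0.05, Abcc2, the canalicular exporter, among them at 843 ± 235 CPM in TG and 990 ± 23.1 CPM in WT (SD, n = 3 each).

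Of 25 regulators of these families, Onecut1, a hepatocyte transcription factor, was higher in TG (log2 fold change 0.85, unadjusted p 0.0334). Nr1i3, the constitutive androstane receptor, was at 31.4, 20.5 and 26.9 CPM in the TG livers and at 52.5, 58.7 and 22.2 CPM in the WT livers. From WT replicate 2 as the highest to TG replicate 2 as the lowest, the 6 livers stood in the same order for Nr1i3 as for the hepatocyte medians, whose part in its level was not tested. Its log2 fold change was -0.76 (SE 0.36, unadjusted p 0.0710). None of 12 reference targets of these regulators had an unadjusted p below 0.05, although their median log2 fold change was -0.67. Several SULTs are known to differ between male and female mouse liver. Of 8 male-biased genes 2, C6 and Serpina1e, were higher in TG at an unadjusted p below 0.05, against 8.68% of all genes tested. The list had 5 genes with a log2 fold change below 0 and a median of -0.1. For Serpina1e, TG replicate 3, at 7.77 CPM, lay below every WT liver. The female-predominant Sult2a1 and Sult3a1 stayed at or below 2 counts in all 6 livers.

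The 250 bases before the RefSeq start of the 3 members with an unadjusted p below 0.05 are printed because their levels are the ones the comparison turns on. They are given 5′ to 3′ on the strand of the gene, from the GRCm38.p6 assembly, with capitals for any match to a searched motif. Sult1d1 is on the minus strand at chr5:87569007-87569256, where the RefSeq start lies just inside the gene as GENCODE draws it. Sult1e1 is on the minus strand at chr5:87591612-87591861, and Ugt1a1 is on the plus strand at chr1:88211709-88211958.
Sult1d1: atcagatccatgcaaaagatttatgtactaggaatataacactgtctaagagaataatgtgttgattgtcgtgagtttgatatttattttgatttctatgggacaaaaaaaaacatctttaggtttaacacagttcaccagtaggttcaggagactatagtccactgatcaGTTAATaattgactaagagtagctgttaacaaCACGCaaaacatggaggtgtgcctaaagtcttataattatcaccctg
Sult1e1: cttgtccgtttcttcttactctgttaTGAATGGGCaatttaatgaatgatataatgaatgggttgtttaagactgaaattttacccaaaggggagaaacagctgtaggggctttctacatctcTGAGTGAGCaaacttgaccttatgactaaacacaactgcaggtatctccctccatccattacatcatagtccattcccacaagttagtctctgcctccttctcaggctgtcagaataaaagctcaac
Ugt1a1: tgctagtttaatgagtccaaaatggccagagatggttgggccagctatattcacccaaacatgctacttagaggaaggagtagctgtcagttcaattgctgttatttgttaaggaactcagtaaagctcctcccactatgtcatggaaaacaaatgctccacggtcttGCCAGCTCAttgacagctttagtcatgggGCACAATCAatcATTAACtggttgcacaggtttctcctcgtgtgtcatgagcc

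The motifs searched, on both strands, were GCGTG, the core bound by the aryl hydrocarbon receptor; TGACNNNGC and its looser form TGANNNNGC, cores of the antioxidant response element; GTTAAT, a core of HNF1 sites; CAAAGTCCA, an HNF4 site; and the DR4 repeat read by nuclear receptor dimers. Every match to TGACNNNGC is also a match to TGANNNNGC. RefSeq gave 39 regions for 36 of the 42 members. GTTAAT occurred in 13 of these 39, against 6.43% of all 32851 regions of the same length. The holders include Sult1d1, 79 bases before the start, Ugt1a1, 41 bases before it, Ugt1a9, Ugt1a6a, Ugt2a3 and Sult1a1. The others were Ugt3a1 and the members too scarce to test Ugt1a10, Sult2a3, Sult2a4, Sult2a5, Sult2a6 and Sult3a2. No region of a Ugt2b gene held it. Several of the 13 are neighbouring paralogues of Sult2a or Ugt1a and share their sequence, so they are not 13 separate cases. GCGTG occurred in 5 of 39 against 28.2% of all regions, and Sult1d1 held it on the opposite strand. TGANNNNGC occurred in 9 of 39 against 35.2%, with a pair of matches each in Sult1e1 and Ugt1a1. TGACNNNGC, CAAAGTCCA and the DR4 repeat occurred in 0 of 39, against 10.2%, 0.384% and 0.0152% of all regions. A match describes the letters of the window only.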

How the data were processed

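The authors deposited 1 table of raw counts, whole numbers with 1 row per Ensembl identifier, for liver RNA of 3 TG and 3 WT mice. TopHat, Cufflinks and mm10 are named, without versions, per the submitters' processing notes. No source used here gives the counting program, annotation, strand setting or treatment of reads with several matches. The labels' molecule field says genomic DNA while the protocols describe RNA; the values were read as RNA counts.

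Counts were filtered with filterByExpr of edgeR by group, leaving 14031 genes, and compared with edgeR 4.0.16 (R 4.3.3; TMM scaling, robust quasi-likelihood F test, two-sided, Benjamini-Hochberg adjustment over all genes, threshold 0.05). DESeq2 1.42.0 and limma voom 3.58.1, other scalings and filters, and leaving out each library were alternatives. TMM factors lay between 0.826 and 1.152, with a common biological coefficient of variation of 0.329 and 3.47 prior degrees of freedom (median). The fits were tested on simulated counts. SE is the log2 fold change over the root of F. List medians use log2(CPM + 0.5). Symbols came from the reference name table (52403 identifiers matched), exon lengths from GENCODE M21, upstream regions from RefSeq.

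The members and gene lists were chosen with earlier results of these data known. Full values were given for the 8 members of each family with the highest mean CPM, those at an unadjusted p below 0.05, those whose groups did not overlap and those with the largest fold changes; up to 4 genes per other list with the smallest p could be named, and Sult2a1, Sult2b1, Sult3a1, Sult4a1 and the other scarce members were added as an account of all members. Separate mice are stated as replicates by the series' design text; shared litter, cage or day is not stated. The result of the list of female-biased liver genes is not reported here.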

Additional observations from a re-analysis of the deposited data

How the results depend on the processing

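Genes past the adjusted threshold numbered 0 of 14031 with edgeR, 390 with DESeq2, 1 with limma voom and 0 to 305 when single libraries were left out, 305 without TG replicate 3. Genes at an unadjusted p below 0.05, 1551 in all, ranged from 759 without TG replicate 2 to 2328 without WT replicate 3. With a library left out, the UGT median of -0.29 ranged from -0.59 without TG replicate 3 to -0.18 without TG replicate 2, and the SULT median of -0.51 from -0.57 without WT replicate 1 to -0.28 without WT replicate 2. The count of UGTs lower at an unadjusted p below 0.05, 1, became 3 with DESeq2, 2 with no filter and 0 to 6 with a library left out, 6 without WT replicate 3. Over all genes that threshold held for 1551 of 14031 in the main fit, 78.53% of them higher in TG. Without WT replicate 3 it held for 2328 of 14459, and only 63.1% of them were higher. With DESeq2 it held for 1735 of 14031, 74.06% of them higher, and with no filter for 2008 of 25288, 74.4% of them higher. The count of lower SULTs, 1, became 2 with DESeq2 and 1 to 2 with a library left out. The count of higher SULTs, 1, became 0 with limma voom and with no filter, and 0 to 1 with a library left out. DESeq2 called 1 SULT at the adjusted threshold. The cause of these changes was not tested.

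Same-numbered TG and WT livers deviated together with r of 0.15, -0.224 and 0.105, and TG replicate 2 matched WT replicate 1 best, so the numbers were not read as pairs. With a replicate block the count of lower UGTs was 0, that of higher SULTs 0, and the unadjusted count over all genes 1109.

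The sign turned for Ugt1a9 (0.05 with library size only, 0.01 with upper quartile, 0.15 with voom, 0.09 with the block, 0.25 without TG replicate 2, and from -0.39 without WT replicate 1 to 0.53 without WT replicate 3), Ugt2b35 (-0.22 without TG replicate 3, -0.08 without WT replicate 1, -0.12 without WT replicate 2, up to 0.34 without WT replicate 3), Sult5a1 (-0.01 without TG replicate 1, -0.12 without WT replicate 3, up to 0.58 without WT replicate 2) and Sult1a1 (0.06 without WT replicate 2, down to -0.37 without WT replicate 3). Scaling by library size only moved the median of all genes by 0.12 and the share of higher genes among unadjusted calls from 78.5% to 93.3%; the UGT and SULT medians were then -0.16 and -0.33. Depth limits the members under 3 counts, and 3 mice a group limit every test.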
